A study of Mus musculus with 12 samples.

Results

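The natriuretic peptide system of the mouse heart was followed through 6 genes: the peptide genes Nppa and Nppb, the processing protease Corin, and the receptors Npr1, Npr2 and Npr3. Members were taken by gene symbol, which gave 6 of the 16593 named genes and 6 of the 25697 probes, 1 per gene, and all 6 passed the filter on dim signal. Heart RNA of C57Bl/6 mice was hybridised to 12 Illumina bead arrays in 3 groups of 4. The groups were aged mice of 30 to 32 months that had received 3 mM spermidine, a natural polyamine, in their drinking water from month 4, untreated aged mice of 30 to 32 months, and untreated young mice of 6 months. The series concerns heart protection and lifespan under spermidine. No transgene or deletion is named for any group. The sources used here do not give sex, the part of the heart sampled or the time of collection. Each title carries its own sample number, but whether every sample is an animal of its own is not said, and the spread that the p-values measure may be technical. Below, a heart stands for the sample of 1 array.

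Heart muscle makes atrial natriuretic peptide (from Nppa) and B-type natriuretic peptide (from Nppb) as precursors and releases them when its walls are stretched. Corin, a membrane-bound serine protease of heart muscle cells, cuts the atrial precursor to its active form. Npr1 and Npr2 are guanylyl cyclase receptors that answer the peptides with cyclic GMP, Npr1 for the atrial and B-type peptides and Npr2 for the C-type peptide, while Npr3 has no cyclase and clears the peptides. In the adult heart Nppa is made mainly in the atria, and ventricular muscle switches Nppa and Nppb on under load, so both serve as markers of cardiac stress.

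Nppa and Nppb are direct neighbours on mouse chromosome 4 in the RefSeq gene order, and they are the 2 ligand genes among the 6 members, so the 250 bases before each start are shown. Both sequences are from RefSeq (build GRCm38.p6) and run 5′ to 3′ on the + strand, chr4:148000472-148000721 for Nppa and chr4:147985650-147985899 for Nppb. Capitals mark matches to the GATA-factor motifs AGATAA or TGATAA and AGATAG or TGATAG, the T-box motif AGGTGTGA or the TEAD motif CATTCC, on either strand.
Nppa: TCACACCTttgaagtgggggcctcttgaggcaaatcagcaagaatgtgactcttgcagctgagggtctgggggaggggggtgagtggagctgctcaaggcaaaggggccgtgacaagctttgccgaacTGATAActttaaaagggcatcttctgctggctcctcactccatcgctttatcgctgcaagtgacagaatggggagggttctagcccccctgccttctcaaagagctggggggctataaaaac
Nppb: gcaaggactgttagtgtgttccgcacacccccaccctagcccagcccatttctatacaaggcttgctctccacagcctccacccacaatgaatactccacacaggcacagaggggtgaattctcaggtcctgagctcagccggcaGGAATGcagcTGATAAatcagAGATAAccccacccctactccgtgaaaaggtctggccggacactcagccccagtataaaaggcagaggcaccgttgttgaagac
The Nppa window held 1 GATA match and 1 T-box match, which reads TCACACCT at the far end of the window. The Nppb window held 2 GATA matches, TGATAA and AGATAA, and 1 TEAD match, GGAATG, and the matches did not overlap in either window. Of 32851 promoter windows of this length, 26.5% held a GATA match, 6.4% held 2 or more, 12.6% a TEAD match and 1.12% a T-box match. The Nkx motif CACTTAA, the AP-1 motifs TGACTCA and TGAGTCA and the CArG box were searched as well and gave no match in these windows. The windows of Corin, Npr1, Npr2 and Npr3 held none of the motifs, which says only that these letters are not in those windows.

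Values are background-subtracted bead intensities in linear units, called non-normalized in their deposited name. The arrays averaged 259 to 313 units, with 11689 to 12337 probes each over a background limit of 13.2 to 15.8 units. That limit is 3 SDs of a distribution made by reflecting the negative values around 0. Tests used log2 of the quantile-normalized intensity plus 16, so that a log2 difference understates the change of a dim probe. Nppa was at 75.6% to 89.2% of the brightest probe's signal on 11 of 12 arrays, close to the upper end of the measured range, and whether the signal was compressed there was not tested. Cardiac muscle markers were present on all arrays: the list of 6 had 5 genes with a probe, among them Myh6, the main myosin of the adult mouse heart, at 16674 to 20004 units.

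None of the 6 genes passed the test of a difference between groups. In limma's test across all 20573 kept probes with Benjamini-Hochberg adjustment, 0 of 6 passed between spermidine-treated and aged hearts (background 0.00486% of probes called), 0 of 6 between spermidine-treated and young hearts (0.16%), and 0 of 6 between aged and young hearts (0.797%). The smallest adjusted p among the 6 was 0.518, 0.844 and 0.38 in the same order. At an unadjusted p below 0.05, 1 of 6 differed between spermidine-treated and aged hearts, Corin, where 9.45% of all probes did, and 0 of 6 in the other comparisons, where 7.49% and 14.3% did. For 0 of 6 genes were the 4 values of one group all above or all below the 4 of another, where 3.27%, 5.51% and 8.07% of probes showed such a separation. Spermidine minus aged log2 differences were above 0 for 5 of the 6, with a median of 0.29, and aged minus young differences were below 0 for all 6, with a median of -0.24. The median over all kept probes was 0.00 and -0.01. These comparisons share the aged arrays, and 1 of those, described below, was low for 3 of the 6 genes.

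**Figure D1:**
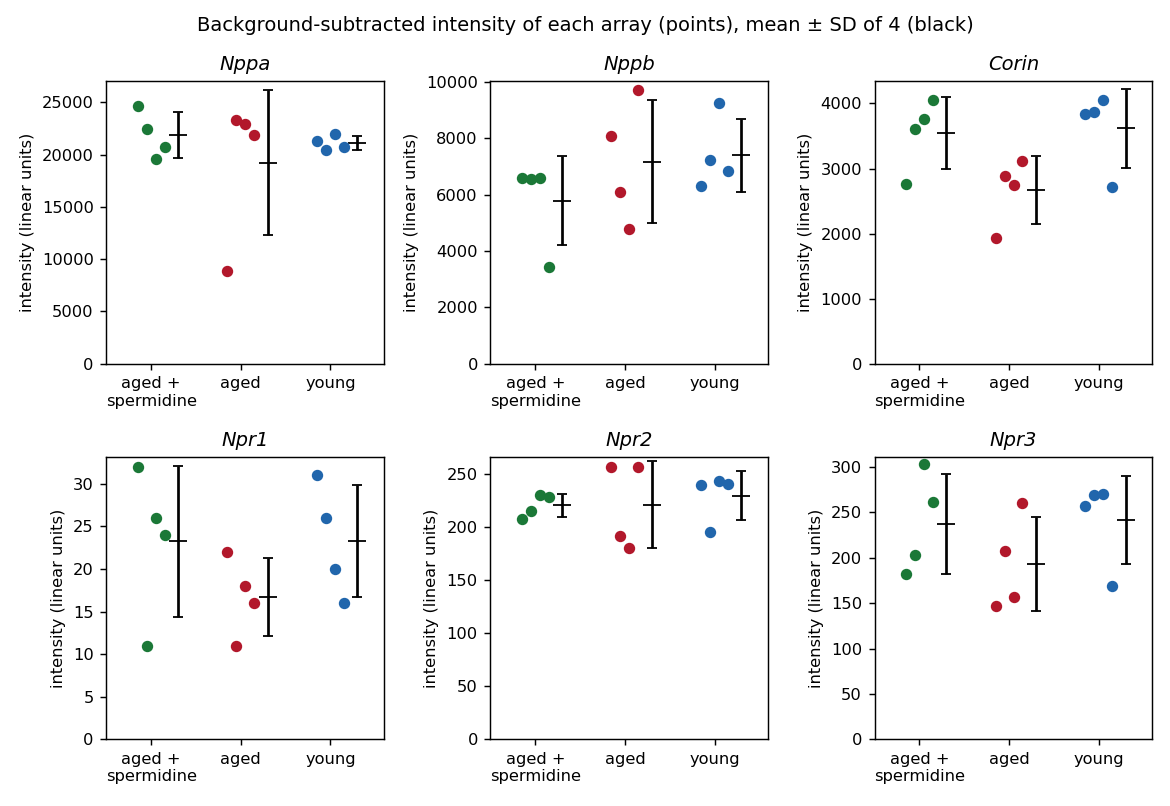
Background-subtracted intensity in linear units (vertical axes, from 0) of the 6 probes in aged hearts with spermidine, aged hearts and young hearts. Points are the 4 arrays of a group from replicate 1 on the left to replicate 4 on the right, and black marks are the mean ± SD. A single aged heart lies at 8895 units for Nppa, against 19607 to 24649 on the other 11 arrays.

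Nppa, the atrial peptide, had 24649, 22444, 19607 and 20742 units in spermidine-treated hearts, 8895, 23332, 22906 and 21858 units in aged hearts, and 21292, 20438, 22013 and 20731 units in young hearts. Of the 12 arrays 11 lay close together, and aged replicate 1 stood alone at 39.2% of the mean of the other aged arrays. Nppa averaged 21860 ± 2194 units with spermidine, 19250 ± 6930 units in the aged group and 21120 ± 693.7 units in the young group (SD over 4 arrays), and the 3 neighbours in this order did not differ beyond their spread. On the log2 scale Nppa differed by 0.35 between spermidine-treated and aged hearts (95% interval -0.21 to 0.91, limma adjusted p = 0.691) and by -0.35 between aged and young hearts (-0.91 to 0.21, adjusted p = 0.58). Without aged replicate 1 these differences were -0.02 (-0.23 to 0.20, adjusted p = 0.974) and 0.02 (-0.19 to 0.23, adjusted p = 0.957). Spermidine-treated and young hearts differed by 0.00 (-0.56 to 0.56, adjusted p = 0.999).

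Nppb, the B-type peptide, had 6590, 6558, 6590 and 3420 units in spermidine-treated hearts, 8098, 6098, 4770 and 9717 units in aged hearts, and 6305, 7224, 9263 and 6822 units in young hearts. Its means were 5790 ± 1580 with spermidine, 7171 ± 2180 in aged and 7404 ± 1295 units in young hearts. The lowest value of all was spermidine replicate 4 and the highest was an aged heart, and the 3 groups overlapped. Nppb differed by -0.24 on the log2 scale between spermidine-treated and aged hearts (-0.70 to 0.22, limma adjusted p = 0.748), and by -0.03 without spermidine replicate 4. It differed by -0.33 between spermidine-treated and young hearts (-0.79 to 0.13, adjusted p = 0.844; -0.12 without spermidine replicate 4), and by -0.09 between aged and young hearts (-0.55 to 0.37, adjusted p = 0.89), where leaving out 1 array gave -0.24 (without aged replicate 4) to 0.04 (without aged replicate 3). In aged replicate 1, where Nppa was low, Nppb was at 118% of the mean of the other aged hearts. Over the 12 arrays the log2 values of Nppa and Nppb had Pearson's r = -0.11 (permutation p = 0.503, adjusted over 6 relations 0.604) and Spearman's rho = -0.20 (permutation p = 0.533, adjusted 0.64). Without the 2 arrays farthest from the median of Nppb, r was -0.16.

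Corin, the protease that activates the atrial peptide, was the member with the smallest p in 2 of the 3 comparisons. It had 2769, 3602, 3763 and 4053 units in spermidine-treated hearts, 1931, 2885, 2746 and 3123 units in aged hearts, and 3839, 3866, 4058 and 2716 units in young hearts. Of the treated hearts 3 lay above every aged heart, and 3 of the young hearts lay above every aged heart, but spermidine replicate 1 and young replicate 4 fell inside the aged range. Means were 3547 ± 551.1 with spermidine, 2671 ± 517.5 in aged and 3620 ± 610.3 units in young hearts. The treated over aged ratio was 1.37-fold (log2 difference 0.45, SE 0.20, interval 0.02 to 0.89, unadjusted p = 0.0426, limma adjusted p = 0.518). Without aged replicate 1, the lowest of the 12, the difference was 0.26 (-0.11 to 0.63). The aged over young ratio was 0.753-fold (log2 difference -0.41, SE 0.20, interval -0.85 to 0.03, adjusted p = 0.38), -0.21 without aged replicate 1 and -0.53 (-0.98 to -0.08, adjusted p = 0.304) without young replicate 4. Treated and young hearts differed by 0.05 (-0.39 to 0.48, adjusted p = 0.995).

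**Figure D2:**
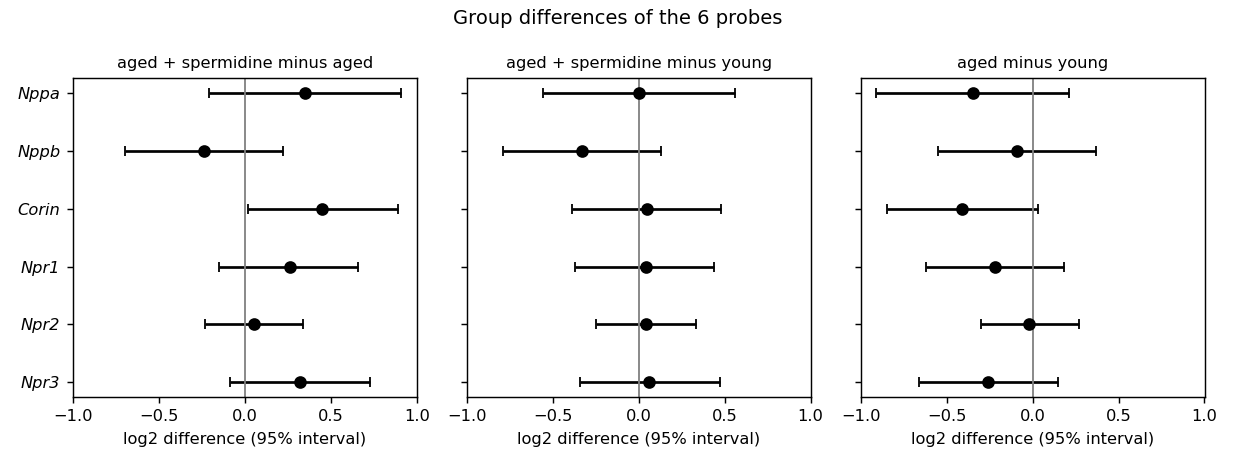
Log2 differences (horizontal axis) of the 6 probes with 95% intervals from limma, in spermidine-treated minus aged, spermidine-treated minus young, and aged minus young hearts. Of the 18 intervals, that of Corin between spermidine-treated and aged hearts, 0.02 to 0.89, leaves out 0, and 0 of 18 adjusted p-values lay below 0.05.

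Among the receptors, Npr1, which carries the response to both heart peptides, gave a dim signal. It had 32, 11, 26 and 24 units in spermidine-treated hearts, 22, 11, 18 and 16 units in aged hearts, and 31, 26, 20 and 16 units in young hearts, and the groups overlapped. It stood above the background limit on 3 of 4 treated, 3 of 4 aged and 4 of 4 young arrays, so that its differences include values under that limit. They were 0.26 (-0.15 to 0.66) between treated and aged hearts, 0.04 (-0.37 to 0.44) between treated and young hearts and -0.22 (-0.62 to 0.18) between aged and young hearts, with limma adjusted p of 0.686, 0.997 and 0.632. Between treated and aged hearts the value was 0.15 without spermidine replicate 1, 0.16 without aged replicate 2 and 0.42 without spermidine replicate 2. Between aged and young hearts it was -0.12 without aged replicate 2 or without young replicate 1, and -0.40 without aged replicate 1, young replicate 4 and spermidine replicate 3 together. With 64 added in place of 16 before log2, these differences were 0.11 and -0.09.

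Npr2, the receptor for the C-type peptide, had 207, 215, 230 and 228 units in spermidine-treated hearts, 256, 191, 180 and 256 units in aged hearts, and 239, 195, 243 and 240 units in young hearts. In these units all treated and young hearts lay within the aged range, which ran from 180 to 256 units. On the normalized log2 scale Npr2 was 7.69 to 8.06 in aged hearts, with spermidine replicate 4 above (8.09) and young replicate 2 below (7.65). Its pooled SD within groups was 0.17 on the log2 scale, and 41.6% of the 10311 probes above the limit on all arrays had a smaller one. For Nppa (0.42), Nppb (0.34), Corin (0.31) and Npr3 (0.29) this share was 95.5%, 90.2%, 87.7% and 83.7%. The value of Nppa includes aged replicate 1, and within treated and young hearts its log2 SD was 0.08 and 0.02, against 0.13 and 0.17 for Npr2. Nppa ranked 4 to 13 from the brightest in treated and 6 to 9 in young hearts, and quantile normalization sets values by rank. In linear units its SD was 10% and 3.28% of the mean in these groups, against 4.97% and 9.99% for Npr2. Npr2 differed by 0.05 (-0.23 to 0.34, limma adjusted p = 0.924) between treated and aged, 0.04 (-0.25 to 0.33, adjusted p = 0.995) between treated and young, and -0.02 (-0.30 to 0.27, adjusted p = 0.973) between aged and young hearts.

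Npr3, the clearance receptor, had 182, 203, 303 and 261 units in spermidine-treated hearts, 147, 207, 157 and 260 units in aged hearts, and 257, 269, 270 and 169 units in young hearts. The ranges overlapped, with young replicate 4 and aged replicate 1 the lowest of their groups. Npr3 differed by 0.32 (-0.09 to 0.73, limma adjusted p = 0.613) between treated and aged, 0.06 (-0.34 to 0.47, adjusted p = 0.992) between treated and young, and -0.26 (-0.66 to 0.15, adjusted p = 0.571) between aged and young hearts. Without aged replicate 1 the first and last of these were 0.21 and -0.15.

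Because Nppa is an atrial transcript, the members were set beside a list of 13 atrial markers that holds none of them. Summed over the list, intensity was 27695 to 39097 units in spermidine-treated hearts, 5250 to 40119 units in aged hearts and 33154 to 40203 units in young hearts. Aged replicate 1 was the lowest of the 12 arrays for 9 of the 13 genes. It was not the lowest for Kcna5, Kcnj3 and Pam, at 86.1%, 70.4% and 100% of the other aged hearts' mean. Nor was it for Kcnj5 (129%), whose probe was above the background limit on 0 of 12 arrays. The scores of aged replicate 1 were also the lowest of the 12 for the lists of 4 epicardial (-0.88), 6 endothelial (-0.29) and 4 endocardial (-0.31) markers. The same held for its score over the 5 cardiomyocyte markers with a probe (-0.28). Its summed intensity was lowest for the epicardial (303 units) and endocardial (1210 units) lists only. Its sum was 50642 units for the cardiomyocyte list, against 44837 units in aged replicate 4. Its endothelial sum was 7581 units, against 6924 units in aged replicate 2. Its ventricular score was 0.12, against -0.16 to 0.16 on the other arrays. The epicardial markers Upk3b and Upk1b had 150 and 5 units on this array, against at least 309 and 31 units on the other arrays. The other 2 epicardial markers were not lowest there: Wt1 had 137 units, against 101 to 198 units elsewhere, and Msln 11 units, against 6 to 44 units. The epicardial list had a median of 0.44 between treated and aged hearts and -0.60 between aged and young hearts, with 0 of 4 past the threshold. Sln, which regulates the atrial calcium pump, had 909 units there against 8123 to 9963 units in the other aged hearts, 10.3% of their mean. The atrial myosin light chains Myl4 and Myl7 were at 15.4% and 11.8% of that mean, the myosin-binding protein gene Mybphl was at 7.29%, and Bmp10, a growth factor of the right atrium, was at 0 units against 14 to 48 units in the other aged hearts, near the background limit. Among the members on the same array, Nppa was at 39.2%, Corin at 66.2% and Npr3 at 70.7% of the other aged hearts' mean. Fewer atrial cells and less of these RNAs per cell cannot be told apart in whole tissue, and the part of atrial content in the group values was not tested beyond the fits given here.

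The atrial score, the mean over the list of each gene's log2 value minus its mean over the arrays, was -1.44 in aged replicate 1 and -0.17 to 0.33 on the other 11. No group difference in the score passed, with 0.41 between treated and aged hearts (exact permutation p = 0.457), -0.03 between treated and young hearts (exact p = 0.857) and -0.43 between aged and young hearts (exact p = 0.229; the smallest possible with 4 against 4 is 0.0286). With the score as a covariate, Nppa differed by 0.01 (-0.29 to 0.30) between treated and aged hearts and by 0.02 (-0.28 to 0.31) between aged and young hearts. Corin differed by 0.24 (-0.10 to 0.59) and -0.18 (-0.54 to 0.17) in the same fits, and Npr3 by 0.19 and -0.12. Npr1 moved away from 0, to 0.37 (-0.04 to 0.78) and -0.34 (-0.76 to 0.07), while Nppb differed by -0.17 and -0.16 and Npr2 by 0.10 and -0.06. Most of the score's range lies in aged replicate 1, so these fits and leaving that array out are not independent checks. For the dim Npr1 that array was the highest of the aged group, at 22 units against 11 to 18 units.

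Over the 12 arrays the score had Pearson's r = 0.95 with Nppa (permutation p = 0.0688, adjusted over the 6 relations 0.138), 0.82 with Corin (p = 0.00716, adjusted 0.0354) and 0.61 with Npr3 (p = 0.0118, adjusted 0.0354). Spearman's rho was 0.11 for Nppa (permutation p = 0.737, adjusted 0.737), 0.52 for Corin (p = 0.0883, adjusted 0.324) and 0.48 for Npr3 (p = 0.115, adjusted 0.324). Without the 2 arrays farthest from the median score, aged replicate 1 and spermidine replicate 1, r was 0.06, 0.22 and 0.14, so these relations rest on those arrays. With group means removed, r was 0.93 for Nppa (adjusted permutation p = 0.00342), 0.78 for Corin (adjusted permutation p = 0.00747) and 0.51 for Npr3 (adjusted permutation p = 0.148), with aged replicate 1 still among the arrays. That array lowers the aged means, so removing them lifts the other aged arrays together in the score, Nppa and Corin. The permutation took all arrays as exchangeable, so the p-values of Nppa and Corin are no separate evidence of a relation within groups. Nppb had r = -0.23 (permutation p = 0.356, adjusted 0.534) and rho = -0.43 (p = 0.162, adjusted 0.324), and Npr2 had r = -0.20 (p = 0.662, adjusted 0.662) and rho = 0.24 (p = 0.456, adjusted 0.64). Without those 2 arrays r was -0.58 for Nppb and 0.48 for Npr2.

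**Figure D3:**
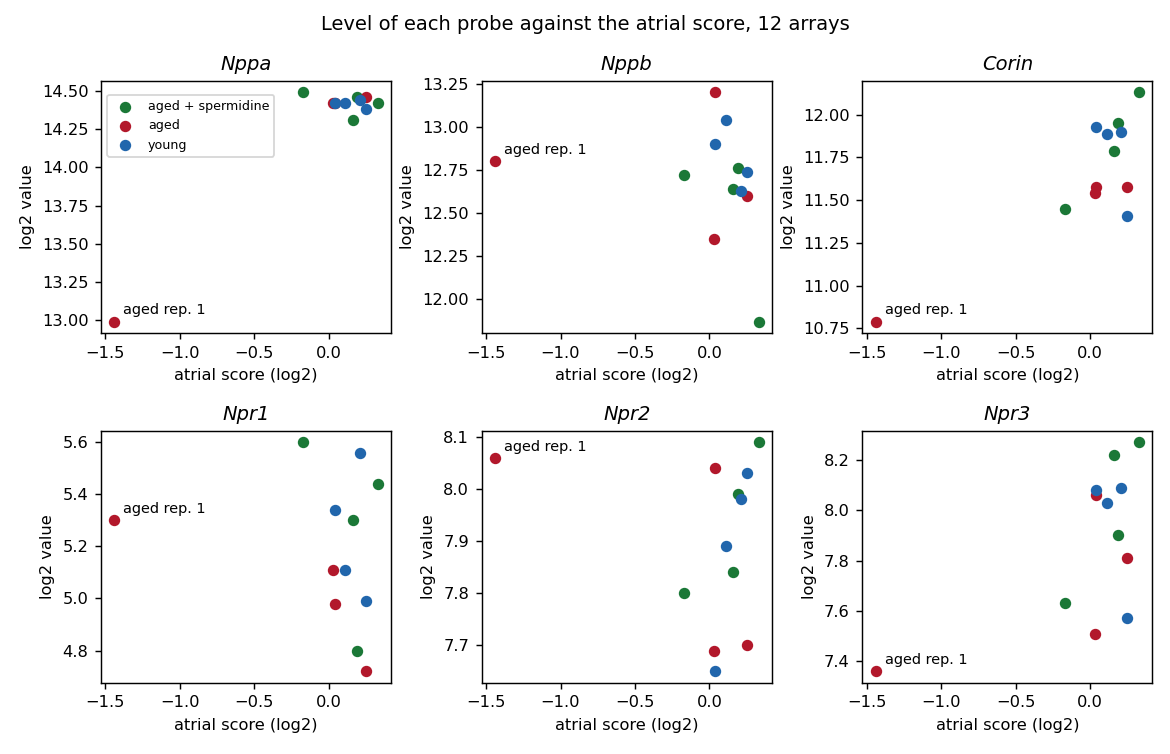
Log2 value of each probe (vertical axes) against the atrial score (horizontal axes, log2 scale) on the 12 arrays, coloured by group. Aged replicate 1, with a score of -1.44, is lowest for Nppa, Corin and Npr3 and not for Nppb, Npr1 or Npr2, while the other 11 arrays lie between -0.17 and 0.33.

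Transcripts of other tissues stood high on 2 arrays. The 4 airway genes with a probe, of 5 listed, summed to 10068 units in young replicate 4 and 3570 units in spermidine replicate 3, against 0 to 17 units in aged hearts. Adipocyte markers, with a probe for 5 of 6, had scores of 1.82 and 1.24 on the same arrays. Young replicate 4 was the lowest young heart for Corin (2716 against 3839 to 4058 units), Npr3 (169 against 257 to 270 units) and the dim Npr1 (16 against 20 to 31 units). Its Nppa was at 97.6% of the mean of the other young hearts. Spermidine replicate 3 had the highest Npr3 intensity of the 12 arrays (303 units), with Corin at 106% and Npr1 at 112% of the group's mean. The part of these transcripts in the members' values was not tested beyond leaving the arrays out. Without both arrays 0 of 6 members passed in any comparison, and Corin differed by 0.47 between treated and aged hearts and by -0.53 between aged and young hearts.

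**Figure D4:**
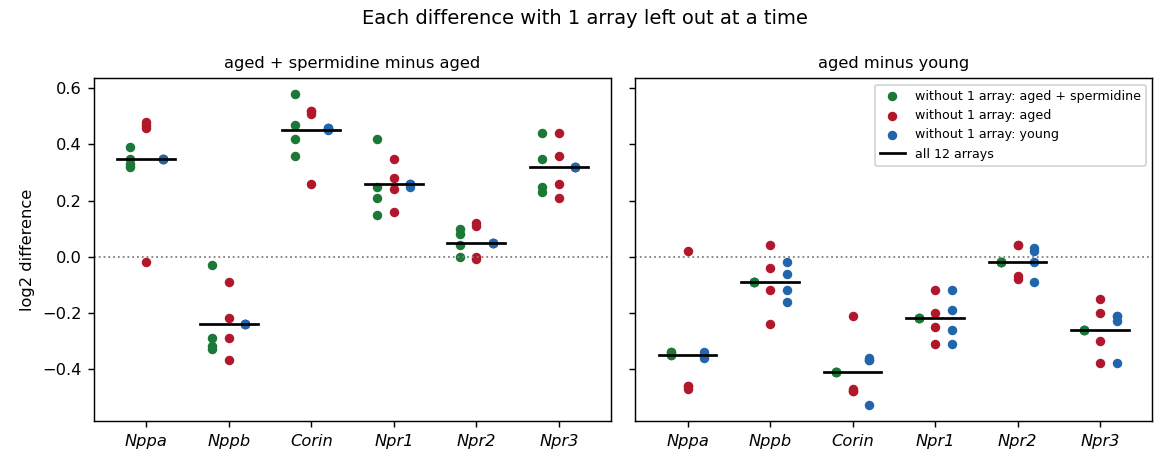
Log2 difference (vertical axis) of each gene for spermidine-treated minus aged and aged minus young hearts, with all 12 arrays (black lines) and with 1 array left out (points, coloured by the group of that array). For Nppa 1 aged array decides the value, which is -0.02 and 0.02 without it, against 0.35 and -0.35 with all arrays.

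The genes whose log2 values followed each member most closely over the 12 arrays were taken among 9731 named probes above the limit on all arrays, as a description with no test. Because they were picked on these same arrays, a high value without 2 of the arrays is no independent check of a likeness. For Nppa they were Sln (Pearson's r = 0.98), Mybphl (0.97), Myl4 (0.97), Aldh1l2 (0.93) and Myl7 (0.93). Without the 2 arrays farthest from the median of Nppa these were -0.40, -0.27, -0.24, 0.50 and -0.50, so the likeness of Nppa to the 4 atrial genes among them did not hold without those 2 arrays. For Nppb they were Gm5801 (0.87), Armh4 (0.83), Tfb1m (0.83), Wdr18 (0.82) and Itpkc (0.80), with 0.70, 0.64, 0.50, 0.59 and 0.67 without the 2 farthest arrays. For Corin they were Ttc3 (0.96), H3f3b (0.95), Sdc2 (0.93), Faf1 (0.93) and Sar1a (0.92), with 0.72 to 0.96 without the 2 farthest arrays. For Npr2 they were Fam229b (0.94), Tjap1 (0.94), Ptprs (0.93), Pkig (0.92) and Chmp5 (0.91), with 0.85 to 0.91 without the 2 farthest. For Npr3 they were Ppip5k2 (0.94), Srsf6 (0.91), Midn (0.89), Mbnl2 (0.89) and Sdc2 (0.89), with 0.78 to 0.89 without the 2 farthest. Sdc2, a heparan sulfate proteoglycan, stood on the lists of both Corin and Npr3.

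Around the members, 5 lists of 73 genes covered the rest of the pathway, of which 65 had a probe and 57 were kept. Of the 57, 0 passed in any comparison, with smallest adjusted p of 0.431 between treated and aged, 0.251 between treated and young and 0.0699 between aged and young hearts. At an unadjusted p below 0.05, 4 (7.02%), 4 (7.02%) and 13 (22.8%) differed, against 9.45%, 7.49% and 14.3% of all probes. Between aged and young hearts the 13 were 4 higher and 9 lower in aged hearts, where 7.31% of all probes were higher and 7.01% lower. In each of the other comparisons 3 were higher and 1 lower in treated hearts, where the shares of all probes were 4.68% and 4.77% against aged hearts and 4.32% and 3.17% against young hearts.

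Peptide processing and clearance had 6 of 8 listed genes kept, with 0 past the threshold and medians of 0.05 between treated and aged hearts and -0.11 between aged and young hearts. Mme, the protease neprilysin that degrades natriuretic peptides, stood at 5.76 ± 0.23 log2 intensity with spermidine, 6.18 ± 0.28 in aged and 5.32 ± 0.44 in young hearts (SD over 4 arrays). It differed by 0.86 between aged and young hearts (SE 0.21, limma adjusted p = 0.0821) and by -0.42 between treated and aged hearts (adjusted p = 0.55). Ece1, which activates endothelin, stood at 10.28 ± 0.12 with spermidine, 9.78 ± 0.18 in aged and 10.29 ± 0.10 in young hearts. It differed by 0.50 between treated and aged hearts (adjusted p = 0.431) and by -0.50 between aged and young hearts (adjusted p = 0.0699), while its other probe differed by -0.05 and -0.07. Dpp4, a peptidase of the cell surface, differed by 0.49 and -0.59 (adjusted p = 0.49 and 0.177), and the convertase Furin by 0.13 between treated and aged hearts (adjusted p = 0.711; other probes -0.03 and -0.08). Nppc, the gene of the C-type peptide, was above the background limit on 0 of 12 arrays.

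For cyclic GMP synthesis, effectors and breakdown 17 of 19 genes were kept, 0 passed, and the median was -0.03 between treated and aged hearts and 0.02 between aged and young hearts. Of the subunits of soluble guanylyl cyclase, the nitric oxide receptor that also makes cyclic GMP, Gucy1a1 differed by -0.54 between aged and young hearts (limma adjusted p = 0.111; other probes -0.27 and -0.25) and Gucy1b1 by -0.34 (adjusted p = 0.218). Gucy1a2, above the limit on 0 of 12 arrays, differed by 0.49 (adjusted p = 0.431). The regulator of G-protein signalling Rgs2, above the limit on 5 of 12 arrays, differed by -0.60 (adjusted p = 0.124), and the phosphodiesterase Pde2a, which cyclic GMP stimulates, by -0.36 (adjusted p = 0.291). Between treated and aged hearts the smallest p belonged to Rgs4 (-0.44, adjusted p = 0.502), Pln, the inhibitor of the calcium pump (0.32, adjusted p = 0.548), Pde2a (0.28, adjusted p = 0.564) and Rgs2 (0.32, adjusted p = 0.576).

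Of the transcription factors and cofactors known to act on the peptide genes, 16 of 19 were kept and 0 passed. Gata4, whose family the GATA motif is named for, stood at 6.97 ± 0.16 with spermidine, 6.81 ± 0.28 in aged and 7.18 ± 0.12 log2 intensity in young hearts, an aged minus young difference of -0.38 (limma adjusted p = 0.251). Srf, which binds the CArG box, differed by -0.23 (adjusted p = 0.34; other probe 0.07), the T-box factor Tbx5 by -0.50 (adjusted p = 0.395; other probe -0.33) and the histone deacetylase Hdac5 by -0.22 (adjusted p = 0.427; its other probes 0.13 and -0.23). The probe of Tead1 was above the limit on 0 of 12 arrays. Between treated and aged hearts Hand2 (0.36), Hdac9 (-0.25), Mef2d (-0.30) and Mef2a (-0.31) had the smallest p, with adjusted p of 0.604, 0.669, 0.689 and 0.702. The other probes of Mef2a differed by 0.31 and 0.05 and that of Hdac9 by 0.03, and the probes of Hdac9 and Mef2d were above the limit on 3 and 8 of 12 arrays.

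The list of fetal and stress genes of the ventricle had 10 of 13 members kept, among them Myh6 and Atp2a2, which are known to fall under load while others of the list are known to rise. Of the 10, 0 passed, and the median was -0.01 between treated and aged hearts and 0.08 between aged and young hearts. Timp1, an inhibitor of matrix proteases, differed by 0.84 between aged and young hearts (limma adjusted p = 0.0862; other probe 0.64), Fhl1, a protein of the sarcomere that senses stretch, by 0.51 (adjusted p = 0.114; other probe 0.41), and skeletal actin Acta1 by 0.49 (adjusted p = 0.658). Timp1 and Fhl1 differed by 0.80 and 0.50 between treated and young hearts (adjusted p = 0.251 and 0.292). Between treated and aged hearts Myh7, the slow myosin, differed by 0.68 (adjusted p = 0.733) and Acta1 by -0.48 (adjusted p = 0.761). Of the endothelin and renin-angiotensin list 8 of 14 were kept and 0 passed. Agt, the angiotensin precursor, had the smallest p between treated and aged hearts (0.60, adjusted p = 0.439), with its probe above the limit on 4 of 12 arrays, and Ace had the smallest between aged and young hearts (0.37, adjusted p = 0.428, above the limit on 1 of 12 arrays; other probe 0.58).

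**Figure D5:**
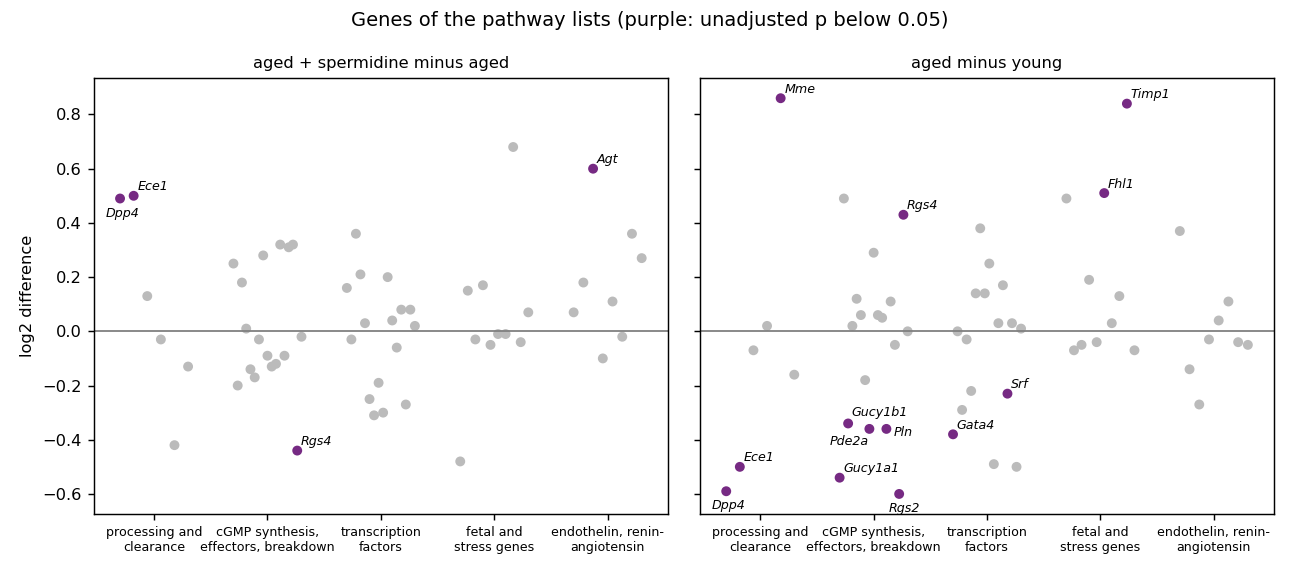
Log2 differences (vertical axis) of the 57 kept genes of the 5 pathway lists in spermidine-treated minus aged and aged minus young hearts. Purple points had an unadjusted p below 0.05 (4 and 13 genes) and grey points did not, and 0 of 57 passed after adjustment over all probes.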

How the data were processed

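Transcripts were measured in 12 heart samples by hybridising biotin-labelled RNA (TotalPrep kit) to Illumina bead arrays, per the labels' protocols. The authors deposited 2 tables of linear intensity for the same 25697 probes. The results rest on the one named non-normalized, and 24.1% of its values lay below 0, so a background had been subtracted. The other holds intensity normalized by the authors in a way that the sources used here do not state, has a median of 21 on every array, and was an alternative. The sources used here give no scanner settings or genome build, and no coordinates of probes are printed.

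Intensities were quantile-normalized, 16 was added and log2 was taken. Probes were kept where 4 or more of the 12 arrays put them over that array's 25th percentile (20573, 80.1%). Background correction from detection p-values was not possible, since the tables used here hold none. Limma 3.58.1 in R 4.3.3 was fitted to 3 group means over all 12 arrays (9 residual degrees of freedom, two-sided), and a probe was called at a Benjamini-Hochberg adjusted p under 0.05. The fit was tested on simulated data. Gene names came from the platform annotation (23978 probes with 1 symbol, 1719 unnamed here), checked against RefSeq with 0 symbols changed. List genes were represented by their brightest probe. List genes with no probe were not analysed here. Precision is limited by how many arrays there are. The 6 correlations used 100000 permutations, two-sided. All members were named in every comparison. Of each list the genes with the smallest p were named, up to 4, and for each member the 5 genes most like it. The members, lists, tests and arrays left out were chosen with earlier results of these data known. Other scalings, offsets, filters, a replicate block, the atrial score as a covariate and left-out arrays were tried as alternatives.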

Additional observations from a re-analysis of the deposited data

Results flagged for a closer look

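In groups of 4 arrays, a sample was marked where its gap to the nearest other took up more of the group's log2 range than Dixon's 95% critical value allows. Of 18 groups tested, 5 held such a sample, where chance marks about 5%. In aged replicate 1 these were Nppa, with a log2 value of 12.99 against 14.42 to 14.46 in the other aged hearts, and Corin, with 10.79 against 11.54 to 11.58. In young replicate 4 they were Corin, with 11.41 against 11.89 to 11.93 in the other young hearts, and Npr3, with 7.57 against 8.03 to 8.09. In spermidine replicate 4, Nppb had 11.87 against 12.64 to 12.76 in the other treated hearts, while its atrial score (0.33) was the highest of the 12. All 5 marked values were the lowest of their group. Aged replicate 1 was also the lowest array for 9 of 13 atrial genes, and young replicate 4 carried airway transcripts. Their part in these values was not tested.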

How the results depend on the processing

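Signal over background limits Npr1, and single arrays move several values with 4 arrays a group. Under every alternative, 0 of 6 members passed in each comparison, with the replicate block too (Nppa 0.35 between treated and aged hearts). No pairing by replicate number was evident, with deviations of same-numbered arrays correlated at -0.27 to 0.21, but 4 arrays a group cannot settle whether there was one. With the block 96 probes of all passed between aged and young hearts, against 164 without it. Of 180 member differences under settings other than leaving out 1 array, 171 kept their direction and 9 turned, none of them called. Between aged and young hearts Nppa was 0.02 with the atrial score as a covariate and 0.01 without 3 arrays with unusual marker levels (aged replicate 1, young replicate 4 and spermidine replicate 3), and Npr2 was 0.03 without the 2 arrays with airway transcripts. Between treated and young hearts, without those 2 and also without the 3, Corin was -0.06, Npr1 -0.05 and Npr3 -0.13. Leaving out 1 array turned 23 of 216 differences. The ranges were -0.47 to 0.02 for Nppa, -0.24 to 0.04 for Nppb and -0.09 to 0.04 for Npr2 between aged and young hearts, -0.02 to 0.48 for Nppa and -0.01 to 0.12 for Npr2 between treated and aged hearts, and -0.02 to 0.04 for Nppa, -0.08 to 0.17 for Corin, -0.07 to 0.20 for Npr1, -0.04 to 0.09 for Npr2 and -0.06 to 0.19 for Npr3 between treated and young hearts. Scaling to the 75th percentile gave -0.18 and the submitters' table -0.21 for Nppa between aged and young hearts, against -0.35. With group means removed, which limits the p-value of Nppa as described above, correlations with the atrial score were 0.93 for Nppa (adjusted permutation p = 0.00342) and 0.51 for Npr3 (adjusted permutation p = 0.148). With 1 array left out they ranged from -0.28 to 0.98 for Nppa, 0.43 to 0.89 for Corin, 0.36 to 0.71 for Npr3, -0.31 to 0.46 for Npr2 and -0.17 to 0.02 for Nppa with Nppb. The calls of Corin and Npr3 were lost without aged replicate 1 (0.43 and 0.36), aged replicate 3 (0.83 and 0.67), spermidine replicate 1 (0.82 and 0.60), spermidine replicate 4 (0.82 and 0.58) or young replicate 1 (0.82 and 0.60). Past the threshold over all probes were 53 to 386 between aged and young hearts, 0 to 1 between treated and aged hearts and 13 to 55 between treated and young hearts in settings other than leaving out 1 array, and 41 to 591, 0 to 56 and 16 to 49 with 1 array left out. The cause of these changes was not tested.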

Other observations

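Myl7, 1 of the 13 atrial genes and named here after its values were seen, had 3364, 5153, 5249 and 5243 units in spermidine-treated hearts, 435, 3550, 3584 and 3936 units in aged hearts, and 6978, 5202, 7101 and 6584 units in young hearts. Every aged heart lay below every young heart, as for 4.01% of all kept probes, and 8.07% were separated in either direction. Between aged and young hearts it differed by -1.52 (SE 0.55, limma adjusted p = 0.22), and by -0.73 (SE 0.17, adjusted p = 0.0965) without aged replicate 1, a fit chosen after seeing the data. Sln on the same arrays had 8123 to 9963 units in the 3 other aged hearts, against 6834 to 10543 units in treated and 8684 to 10510 units in young hearts. Of those aged values, 8123 and 8329 units lay below every young heart. Nppa had 21858 to 23332 units there, against 19607 to 24649 units in treated and 20438 to 22013 units in young hearts. The difference between Myl7 and these genes was not tested.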
